A study of Mus musculus with 16 samples.

Results

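The genes described here encode the invariant chains of the T cell antigen receptor, the CD4 coreceptor and the first kinases and adaptors behind them: Cd3d, Cd3e, Cd3g, Cd247, Cd4, Lck, Zap70, Lat and Lcp2. They were chosen by name, with earlier results of these data known. Each was read from the array probe that the probe table assigns to that symbol alone. Of the 9 genes, 8 had such a probe, 1 probe each, and passed the filter on dim probes, among 16427 genes tested in all. Lck, the kinase that phosphorylates the receptor, had no probe under its symbol in the table and is not analysed here.

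The study measured RNA on Affymetrix mouse arrays from naive CD4 T cells, sorted as CD4+CD62LhiCD25- from spleen and lymph nodes of B6 mice and cultured for 24 h with antibody-coated beads. Cells came from DEC1 KO mice, which lack the transcriptional repressor encoded by Bhlhe40, or from WT mice. The 4 groups were KO cells with anti-CD3 plus anti-CD28, KO cells with anti-CD3, WT cells with anti-CD3 plus anti-CD28 and WT cells with anti-CD3, with 4 arrays each, numbered replicates 1 to 4. All 16 cultures therefore received anti-CD3, and no unstimulated cells were analysed, so each comparison is between stimuli or between genotypes within stimulated cells. The labels state neither age nor sex nor the form of the Bhlhe40 deletion.

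The T cell receptor has no signalling domain of its own. It is held by the CD3 gamma, delta and epsilon chains and by the CD3 zeta homodimer (Cd247), whose cytoplasmic tyrosine motifs are phosphorylated by LCK, which the CD4 coreceptor brings to the complex. ZAP-70 docks on those motifs and phosphorylates the membrane adaptor LAT and the cytosolic adaptor SLP-76 (Lcp2), which together gather phospholipase C gamma and the exchange factors that open the calcium and Ras branches. CD28 is the costimulatory receptor that adds to this signal. DEC1 is a basic helix-loop-helix factor that binds E-boxes.

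The genes Cd3g, Cd3d and Cd3e are neighbours on chromosome 9, and Cd3d and Cd3g are read away from each other from starts 1355 bases apart. Their RefSeq promoters (GRCm38.p6, 250 bases before to 50 after the start), and that of Cd247 on chromosome 1, are shown because these 4 genes encode the chains of one complex and all were lower with anti-CD28 added. Each is written 5' to 3' on the gene's own strand, with capitals on any match to a searched motif: chr9:44981536-44981835 (+) for Cd3d, chr9:44980382-44980681 (-) for Cd3g, chr9:45009562-45009861 (-) for Cd3e and chr1:165788431-165788730 (+) for Cd247.
Cd3d: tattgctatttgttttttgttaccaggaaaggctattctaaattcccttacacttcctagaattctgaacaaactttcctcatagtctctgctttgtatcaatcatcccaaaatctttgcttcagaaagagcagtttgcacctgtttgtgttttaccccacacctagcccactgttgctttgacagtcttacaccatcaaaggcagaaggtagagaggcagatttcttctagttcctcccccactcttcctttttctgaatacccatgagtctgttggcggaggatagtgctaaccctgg
Cd3g: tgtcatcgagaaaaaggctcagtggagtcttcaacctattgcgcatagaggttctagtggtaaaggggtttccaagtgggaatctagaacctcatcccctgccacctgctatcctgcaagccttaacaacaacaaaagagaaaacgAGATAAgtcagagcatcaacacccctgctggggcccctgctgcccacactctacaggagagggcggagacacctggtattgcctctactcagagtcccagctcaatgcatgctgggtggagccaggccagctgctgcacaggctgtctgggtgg
Cd3e: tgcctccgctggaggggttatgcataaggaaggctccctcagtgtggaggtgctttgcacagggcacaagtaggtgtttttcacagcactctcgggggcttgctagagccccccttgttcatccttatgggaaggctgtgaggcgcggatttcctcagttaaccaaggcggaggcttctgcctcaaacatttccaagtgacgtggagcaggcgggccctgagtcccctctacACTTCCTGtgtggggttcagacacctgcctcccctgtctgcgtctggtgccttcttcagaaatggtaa
Cd247: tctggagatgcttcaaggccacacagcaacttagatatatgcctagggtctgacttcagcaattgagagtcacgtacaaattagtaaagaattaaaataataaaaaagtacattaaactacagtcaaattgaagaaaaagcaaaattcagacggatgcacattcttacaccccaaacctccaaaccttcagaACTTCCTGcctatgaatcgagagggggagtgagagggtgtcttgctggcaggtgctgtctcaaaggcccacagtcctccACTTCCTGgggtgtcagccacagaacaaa

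The motifs searched, on both strands, were CAGGAAGT for ETS factors, TGTGGT for RUNX factors, AGATAA for GATA factors and CACGTG, an E-box of the kind DEC1 binds. Among 32851 promoter windows of the same length, CAGGAAGT occurred in 3.33%, TGTGGT in 16.8%, AGATAA in 11.2% and CACGTG in 7.15%. The Cd3e window held CAGGAAGT once, in reverse complement from base -18, and that of Cd247 held it at -58 and 22, also in reverse complement. The Cd3g window held AGATAA at -104, and that of Cd3d none of the motifs. The E-box was in 1 of the 3 Zap70 windows, at -2, and in the Lat window at -166, but in none of the 4 windows printed. A match describes the letters only. The motifs were chosen after the sequences had been seen.

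Bhlhe40, the targeted gene, followed the labels. In replicates 1, 2, 3 and 4 its log2 signal was 6.07, 5.88, 5.86 and 5.73 in KO cells and 10.07, 10.03, 9.38 and 8.55 in WT cells with anti-CD3 plus anti-CD28. With anti-CD3 it was 5.57, 5.95, 5.43 and 5.18 in KO cells against 8.02, 7.63, 7.59 and 7.0 in WT cells. The genotypes did not overlap under either stimulus. The KO means lay at the 31.6 percentile of their arrays with both antibodies and at the 23.1 percentile with anti-CD3, so the differences of -3.62 with both antibodies and -2.03 with anti-CD3 may understate the change. The deviations from the group means split the arrays into replicates 1 and 2 against 3 and 4 in every group. This axis held 39.6% of the variance of the deviations, and some results are therefore also given for each set alone. The sex-linked transcript Xist was high in replicate 1 of the WT groups and in replicates 2 and 4 of the KO groups. With its level in the fit, the member counts below were the same. Arrays of a group therefore differed in this transcript, in the same replicates under both stimuli. No label says how many mice each group came from, and the p-values cover the spread between these arrays.

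Adding anti-CD28 to anti-CD3 was accompanied by lower transcripts of all 4 CD3 chains and of both adaptors in KO and in WT cells. Cd3d, Cd3e, Cd3g, Cd247, Lat and Lcp2 fell by 1.33- to 1.81-fold in KO cells and by 1.42- to 2.09-fold in WT cells after 24 h. Cd4 and Zap70 did not pass the test in either genotype. Differences are log2 signal with anti-CD3 plus anti-CD28 minus log2 signal with anti-CD3, tested with limma across all genes and Benjamini-Hochberg adjusted, with adjusted p under 0.05 as the threshold. All 8 probes lay between the 79.2 and 99.1 percentile of their arrays on every array. In bulk samples, fewer cells of a type and less RNA per cell cannot be told apart. The signals are quantile normalized, so each is relative to the other transcripts on its array and is not an amount per cell.

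**Figure D1:**
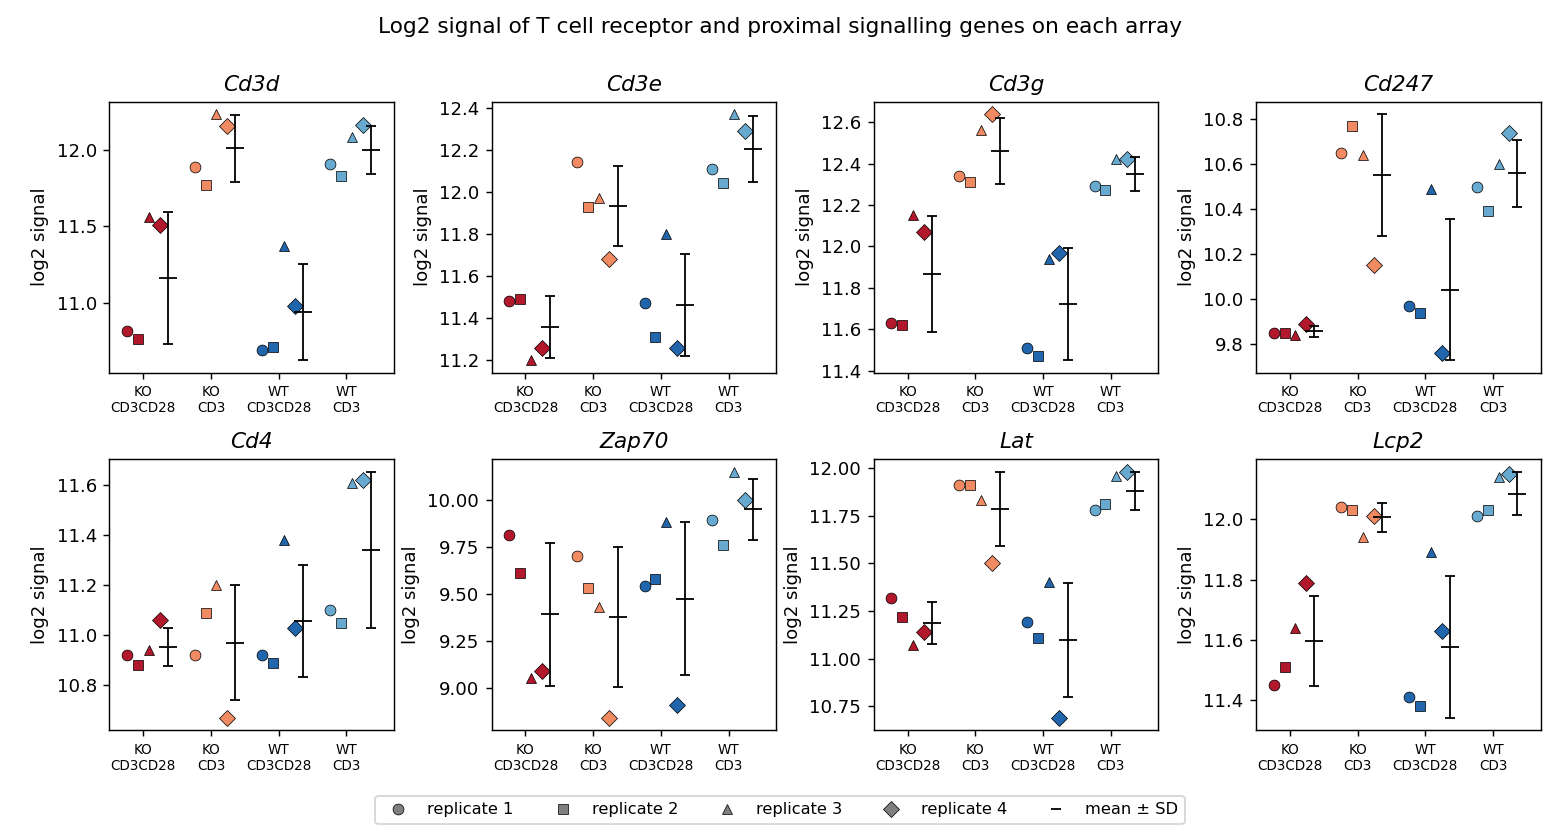
Log2 signal (y axis) of each of the 8 measured genes on every array, by group (x axis), with a marker shape per replicate and the group mean ± SD beside the points. Cd3d, Cd3e, Cd3g, Lat and Lcp2 sit lower with anti-CD3 plus anti-CD28 than with anti-CD3 on all arrays of each genotype. The Cd4 and Zap70 groups overlap between stimuli in both genotypes.

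The CD3 delta chain, which pairs with CD3 epsilon, changed most. In KO cells Cd3d read 10.81, 10.76, 11.56 and 11.51 with anti-CD3 plus anti-CD28, against 11.89, 11.77, 12.24 and 12.16 with anti-CD3. In WT cells it read 10.69, 10.71, 11.37 and 10.98 with both antibodies, against 11.91, 11.83, 12.09 and 12.17 with anti-CD3 alone. The stimuli did not overlap in either genotype. The difference was -0.85 in KO cells (SE 0.19, adjusted p = 0.00165) and -1.06 in WT cells (SE 0.19, adjusted p = 0.000338). Replicates 3 and 4 lay above replicates 1 and 2 in all 4 groups, by 0.748 in KO and 0.476 in WT cells with anti-CD3 plus anti-CD28, and by 0.368 in KO and 0.261 in WT cells with anti-CD3.

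CD3 gamma, the other partner of CD3 epsilon, had the same replicate pattern. Cd3g was 11.63, 11.62, 12.15 and 12.07 in KO cells with anti-CD3 plus anti-CD28, against 12.34, 12.31, 12.56 and 12.64 with anti-CD3. The WT values were 11.51, 11.47, 11.94 and 11.97 with both antibodies, against 12.29, 12.27, 12.42 and 12.42 with anti-CD3 alone. Every array with both antibodies was below every array with anti-CD3 in its genotype, and the difference was -0.60 in KO cells (SE 0.14, adjusted p = 0.00275) and -0.63 in WT cells (SE 0.14, adjusted p = 0.0023).

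Cd3e encodes CD3 epsilon, which every receptor complex holds as a pair of copies, each bound to a different partner. Its signal in KO cells was 11.48, 11.49, 11.20 and 11.26 with anti-CD3 plus anti-CD28, against 12.14, 11.93, 11.97 and 11.68 with anti-CD3. WT cells had 11.47, 11.31, 11.80 and 11.26 with both antibodies, against 12.11, 12.04, 12.37 and 12.29 with anti-CD3 alone. No array crossed over, though KO replicates 3 and 4 were low with both antibodies where WT replicate 3 was high. The difference was -0.57 in KO cells (SE 0.13, adjusted p = 0.0016) and -0.74 in WT cells (SE 0.13, adjusted p = 0.000241).

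Cd247 encodes CD3 zeta, which carries most of the tyrosine motifs of the complex. The KO arrays with anti-CD3 plus anti-CD28 were close together at 9.85, 9.85, 9.84 and 9.89, against 10.65, 10.77, 10.64 and 10.15 with anti-CD3. The WT arrays were at 9.97, 9.94, 10.49 and 9.76 with both antibodies, against 10.50, 10.39, 10.60 and 10.74 with anti-CD3 alone. The KO groups did not overlap, and the WT groups did, since WT replicate 3 with both antibodies, at 10.49, exceeded WT replicate 2 with anti-CD3, at 10.39. The difference was -0.70 in KO cells (SE 0.14, adjusted p = 0.000954) and -0.52 in WT cells (SE 0.14, adjusted p = 0.0108).

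The adaptors moved with the CD3 chains. Lat, the membrane scaffold that ZAP-70 phosphorylates, was 11.32, 11.22, 11.07 and 11.14 in KO cells with anti-CD3 plus anti-CD28, against 11.91, 11.91, 11.83 and 11.50 with anti-CD3. In WT cells it was 11.19, 11.11, 11.40 and 10.69 with both antibodies, against 11.78, 11.81, 11.96 and 11.98 with anti-CD3. Neither genotype showed an overlap, and the difference was -0.60 in KO cells (SE 0.13, adjusted p = 0.00137) and -0.78 in WT cells (SE 0.13, adjusted p = 0.000185). Lcp2, which encodes SLP-76, the adaptor that joins LAT-bound phospholipase C gamma to its activators, was 11.45, 11.51, 11.64 and 11.79 in KO cells with both antibodies, against 12.04, 12.03, 11.94 and 12.01 with anti-CD3. In WT cells Lcp2 was 11.41, 11.38, 11.89 and 11.63 with both antibodies, against 12.01, 12.03, 12.14 and 12.15 with anti-CD3. Its groups did not overlap either, and it had the smallest difference of the 6 genes in both genotypes, -0.41 in KO cells (SE 0.10, adjusted p = 0.00499) and -0.51 in WT cells (SE 0.10, adjusted p = 0.00126).

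Cd4 and Zap70 were not called in either genotype. Cd4, the coreceptor for MHC class II, read 10.92, 10.88, 10.94 and 11.06 in KO cells with anti-CD3 plus anti-CD28, against 10.92, 11.09, 11.20 and 10.67 with anti-CD3, a difference of -0.02 (95% interval -0.33 to 0.29, adjusted p = 0.927). In WT cells it read 10.92, 10.89, 11.38 and 11.03 with both antibodies, against 11.10, 11.05, 11.61 and 11.62 with anti-CD3, a difference of -0.29 (-0.60 to 0.03, adjusted p = 0.169). The stimuli overlapped in both genotypes. Zap70, the kinase that binds the phosphorylated CD3 motifs, was 9.81, 9.61, 9.05 and 9.09 in KO cells with both antibodies, against 9.70, 9.53, 9.43 and 8.84 with anti-CD3, a difference of 0.01 (-0.44 to 0.46, adjusted p = 0.962). In WT cells it was 9.54, 9.58, 9.88 and 8.91 with both antibodies, against 9.89, 9.76, 10.15 and 10.00 with anti-CD3, a difference of -0.48 (-0.93 to -0.03, adjusted p = 0.11). Zap70 groups also overlapped in both genotypes, and its spread over replicates was the widest of the 8 in WT cells with both antibodies. With the replicate number as a block, the WT difference of Zap70 had an adjusted p of 0.0424. The limma p-values of Cd4 and Zap70 in KO cells do not show that these genes are unaffected. In KO cells the lower end of the Zap70 interval, -0.44, is past the -0.41 of Lcp2, while that of Cd4, -0.33, is not.

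**Figure D2:**
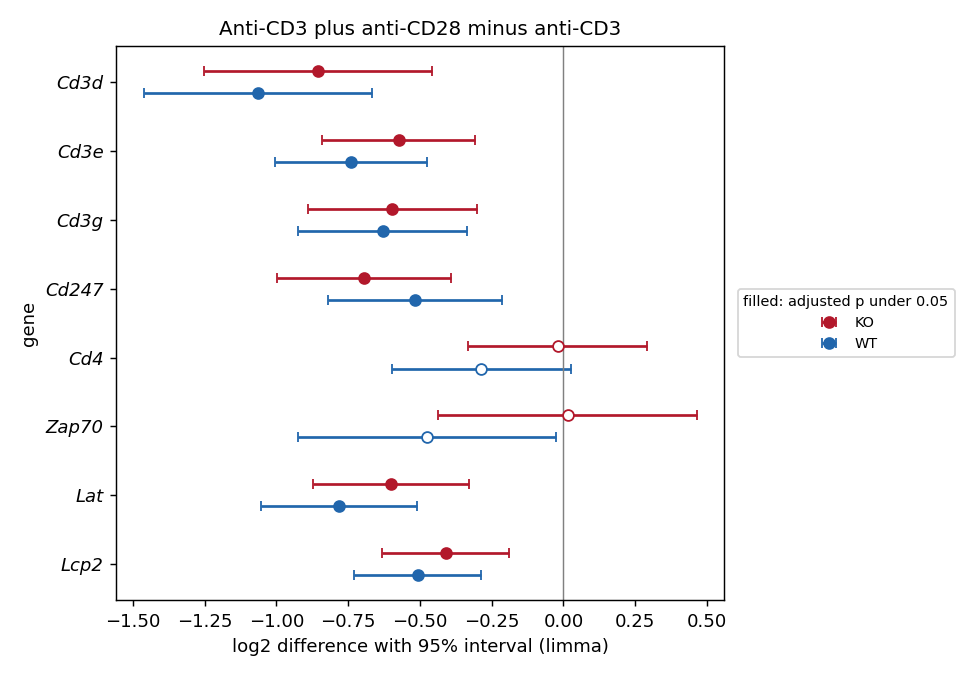
Log2 signal with anti-CD3 plus anti-CD28 minus that with anti-CD3 (x axis) for each gene (rows), in KO cells and in WT cells, with 95% intervals, filled where the adjusted p was under 0.05. The 6 complex and adaptor genes lie between -0.41 and -1.06, and the intervals of Cd4 cross 0 in both genotypes.

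Counted over the 8 genes, 6 passed the test as lower and none as higher in each genotype, and they were the same 6 genes. Over all genes tested, 17.6% were called lower and 20.4% higher in KO cells, and 13% lower and 16% higher in WT cells. The groups did not overlap, with the lower values on the arrays with both antibodies, for 6 of the 8 genes in KO cells, against 16.2% of all genes, and for 5 of the 8 in WT cells, against 14.3%. The median difference of the 8 genes was -0.585 in KO and -0.573 in WT cells, beside -0.0625 in KO and -0.0295 in WT cells over all genes. Leaving out any 1 array kept all 6 calls in both genotypes. From replicates 1 and 2 alone 6 genes were called in each genotype, and from replicates 3 and 4 alone 3 were called in KO cells and 4 in WT cells: there Cd247 and Lcp2 missed the threshold in both genotypes and Lat in KO cells, with log2 differences that stayed below 0.

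None of the 8 genes differed between KO and WT cells beyond the threshold, under either stimulus. With anti-CD3, 0 of 8 were called by limma, beside 1.03% of all genes (169 genes, and 7 to 452 with 1 array left out), and 3 had an unadjusted p under 0.05, Zap70, Cd4 and Cd3e, beside 24.3% of all genes. With anti-CD3 plus anti-CD28, 0 of 8 were called, beside 0.00609% of all genes, which is Bhlhe40 alone, and 0 had an unadjusted p under 0.05, beside 3.32% of all genes. These comparisons use the same arrays as those of the stimuli above and are not independent of them.

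Zap70 had the lowest estimate with anti-CD3. Its KO values of 9.70, 9.53, 9.43 and 8.84 were all below the WT values of 9.89, 9.76, 10.15 and 10.00. Zap70 was the 1 gene of the 8 whose genotypes did not overlap with anti-CD3, where 6.63% of all genes were lower in KO cells without overlap. The difference was -0.57 (SE 0.21, 95% interval -1.02 to -0.12, adjusted p = 0.133), and -0.57 with the replicate number as a block, where the adjusted p was 0.0446. From replicates 1 and 2 alone it was -0.213 and from replicates 3 and 4 alone -0.935, and without KO replicate 4, the lowest array, it was -0.397. The labels do not say what KO and WT arrays of one number share, and those numbered 1, 2 and 4 differed in Xist. The same WT arrays with anti-CD3 enter the WT comparison of the stimuli, where Zap70 was -0.48.

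Cd4 differed by -0.37 in KO cells with anti-CD3 (SE 0.15, adjusted p = 0.152) and Cd3e by -0.27 (SE 0.13, adjusted p = 0.201), with KO means of 10.97 ± 0.23 and 11.93 ± 0.19 and WT means of 11.34 ± 0.31 and 12.20 ± 0.16 (SD, n = 4 arrays each). KO replicate 4 with anti-CD3 was the lowest of its group for Cd3e, Cd247, Cd4, Zap70 and Lat and the highest for Cd3g. The other 5 genes differed by -0.09 for Lat to 0.11 for Cd3g. Cd3d was 0.01 (95% interval -0.38 to 0.41) and Cd247 -0.01 (-0.31 to 0.30). With both antibodies the differences were -0.19 for Cd247 to 0.22 for Cd3d, all with an adjusted p of 0.999. The genotypes of none of the 8 genes stood apart there, against 2.75% of all genes in either direction.

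**Figure D3:**
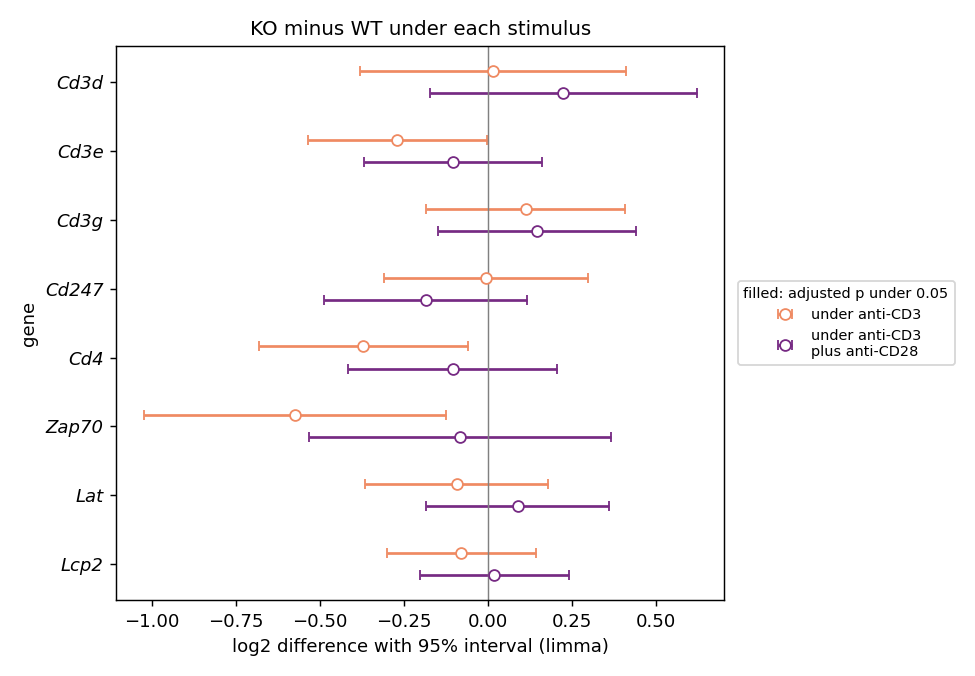
Log2 signal in KO cells minus that in WT cells (x axis) for each gene (rows), under each stimulus, with 95% intervals. No gene passed the adjusted threshold, and Zap70 with anti-CD3 lies farthest from 0, at -0.57.

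Whether the drop with anti-CD28 differed by genotype was tested as an interaction, the KO difference minus the WT difference. None of the 8 genes passed, 0% of all genes passed, and none of the 8 had an unadjusted p under 0.05, beside 5.28% of all genes. The largest was Zap70 at 0.49 (SE 0.30, 95% interval -0.15 to 1.13, adjusted p = 0.905), followed by Cd4 at 0.27 (-0.17 to 0.71). Among the CD3 chains it was 0.21 for Cd3d (-0.35 to 0.77), 0.17 for Cd3e (-0.21 to 0.54), 0.03 for Cd3g (-0.38 to 0.45) and -0.18 for Cd247 (-0.61 to 0.25). Lat was 0.18 (-0.20 to 0.57) and Lcp2 0.10 (-0.21 to 0.41). In simulated data with these arrays' spread, the interaction test recovered 42% of genes changed 1.5-fold and 82% of those changed 2-fold. Noise was drawn there for each gene independently, without the replicate sets, and a set of genes was changed together. These shares may therefore overstate what the test could find on these arrays. Bhlhe40 itself had an interaction of -1.60 that did not pass (limma adjusted p = 0.905).

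The 8 genes did not vary alike over the 16 arrays. The profiles of Cd3e and Lat, each centred on its own mean, were the closest pair, with a root mean square difference of 0.131 on the log2 scale, followed by Cd247 and Lat at 0.149, Cd3e and Cd247 at 0.153, and Cd3g and Lcp2 at 0.168. Cd3d and Cd3g, the divergent neighbours, differed by 0.211. Farthest apart were Cd3d and Zap70 at 0.634, and Cd3g and Zap70 at 0.539. Zap70 and Lat were lower in replicates 3 and 4 than in 1 and 2 in both KO groups, where Cd3d and Cd3g were higher. Arrays share stimulus, genotype and replicate set, so these values describe profiles over 16 arrays and not a relation between the genes.

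By the same measure the gene outside the 8 that lay nearest to each was S100a10 for Cd3d (0.131), Wasf2 for Cd3e (0.072), Cd53 for Cd3g (0.081), Armc7 for Cd247 (0.117), Lgals9 for Cd4 (0.114), Coro1b for Zap70 (0.099), Fxyd5 for Lat (0.085) and Csad for Lcp2 (0.070). Nearest to the mean profile of the 4 CD3 chains were Shisa5 (0.078), Nrbp1 (0.087), Il16 (0.095), Stat2 (0.096) and Bnip3l (0.098).

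Beyond these genes, 66 of 69 listed genes of the wider receptor pathway were tested: kinases and phosphatases, adaptors, effectors downstream of LAT and SLP-76, and accessory surface molecules. With anti-CD28 added, 25 fell and 7 rose in KO cells and 27 fell and 7 rose in WT cells. That is 37.9% lower in KO cells, beside 17.6% of all genes, and 40.9% lower in WT cells, beside 13% of all genes. The lists were also chosen with earlier results of these data known, and the shares of all genes were not matched for signal level. The medians were -0.233 in KO and -0.289 in WT cells, and 23 genes were called lower and 7 higher in both genotypes. From replicates 3 and 4 alone, 14 genes were called in KO cells, 12 lower and 2 higher, and 22 in WT cells, 19 lower and 3 higher. Over all 16427 genes those fits called 1081 lower and 1815 higher in KO cells and 1196 lower and 1454 higher in WT cells. From replicates 1 and 2 alone, 39 pathway genes were called in KO cells and 40 in WT cells, in either direction.

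Of 14 kinases and phosphatases near the receptor, 6 fell and 2 rose in KO cells and 5 fell and 2 rose in WT cells. The shares of all genes were 17.6% lower and 20.4% higher in KO cells and 13% lower and 16% higher in WT cells. Ptpn22, the phosphatase that acts on LCK and ZAP-70, changed by -1.19 in KO cells (SE 0.12, adjusted p = 8.19e-07) and by -1.28 in WT cells (SE 0.12, adjusted p = 6.63e-07). In KO and WT cells the Tec family kinase Txk changed by -1.10 (KO) and -1.07 (WT), its relative Tec by -0.72 (KO) and -0.53 (WT), the phosphatase Ubash3b by -0.48 (KO) and -0.86 (WT) and the Src family kinase Fyn by -0.42 (KO) and -0.50 (WT). The 2 that rose were the phosphatases Ptpn2, by 0.55 (KO) and 0.31 (WT), and Ptpn11, by 0.42 (KO) and 0.30 (WT). With the mean of its probes Ptpn2 was not called in either genotype, and its WT call was lost under 16 of the 29 settings tried. Of 23 adaptors, 10 fell and 1 rose in each genotype. Sh3bp2 (-1.15 in KO cells and -1.45 in WT cells), Gab3 (-0.85 in KO and -0.75 in WT), the SLP-76 partner Fyb (-0.70 in KO and -0.61 in WT) and the membrane adaptor Lime1 (-0.67 in KO and -0.86 in WT) fell, and Sh2d1a, which encodes the adaptor SAP, rose by 0.59 in KO and 1.00 in WT cells.

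Among 19 effectors downstream of LAT and SLP-76, 7 fell and 2 rose in KO cells and 8 fell and 2 rose in WT cells. Of all genes, 17.6% fell and 20.4% rose in KO cells and 13% fell and 16% rose in WT cells. Plcg1, the phospholipase that LAT recruits, changed by -0.64 in KO cells (SE 0.13, adjusted p = 0.00105) and -0.65 in WT cells (SE 0.13, adjusted p = 0.00113). Prkcq, the kinase PKC theta, changed by -0.81 in KO and -0.79 in WT cells, the calcium release channel Itpr3 by -0.57 in KO and -0.59 in WT cells and the calcium store sensor Stim1 by -0.51 in KO and -0.46 in WT cells. The exchange factor Vav2 rose by 0.44 in KO and 0.48 in WT cells. Itpr2, another channel gene, changed by -0.75 in KO and -0.49 in WT cells and was called in both. Of 10 accessory surface molecules, 2 fell and 2 rose in KO cells and 4 fell and 2 rose in WT cells. The KO counts of this list are near the shares of all genes. Cd27, a costimulatory receptor of naive cells, changed by -1.27 in KO and -1.62 in WT cells, and Spn, which encodes CD43, by -1.07 in KO and -1.21 in WT cells. Cd44, a marker of activated cells, rose by 1.55 in KO and 1.39 in WT cells, and Thy1 by 0.69 in KO and 0.55 in WT cells. Between genotypes 0 of the 66 genes were called by limma under either stimulus, with 15 at an unadjusted p under 0.05 with anti-CD3 (22.7%, beside 24.3% of all genes) and 0 with both antibodies. In the fit with replicate number as a block, 7 were called with anti-CD3 (10.6%, beside 11.9% of all genes). Neither share with anti-CD3 was above that of all genes.

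**Figure D4:**
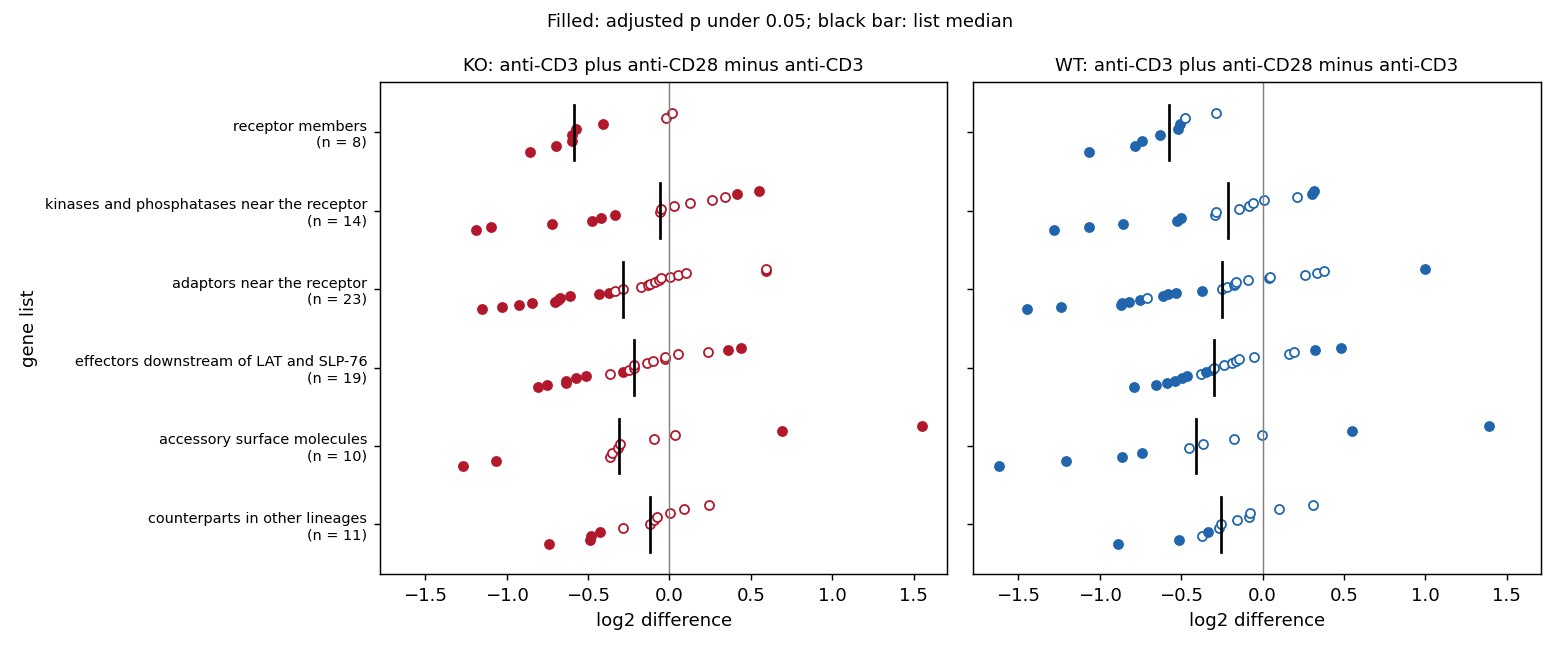
Log2 signal with anti-CD3 plus anti-CD28 minus that with anti-CD3 (x axis, same scale in both panels) for every tested gene of the 8 members, the 4 pathway lists and the counterparts in other lineages (rows), in KO cells (left) and in WT cells (right), filled where the adjusted p was under 0.05, with a black bar at the list median. Most filled points of the 4 pathway lists lie left of 0, with 25 lower and 7 higher in KO cells and 27 lower and 7 higher in WT cells.

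For some of the same steps, B, NK and myeloid cells can also use other genes, in place of or beside those above. Of 11 such counterparts tested, 4 fell in KO cells, where 17.6% of all genes did, and 3 in WT cells, where 13% did, and none rose. Tyrobp, the signalling adaptor of NK and myeloid receptors, changed by -0.74 in KO and -0.51 in WT cells, the adaptor gene Lat2 by -0.49 in KO and -0.34 in WT cells, and Cd79a, a B cell receptor chain, by -0.48 in KO and -0.89 in WT cells. The Cd79a means with both antibodies lay near the filter on dim probes, at the 26.15 percentile in KO and 23.2 in WT cells. With anti-CD3 they lay at 32.22 in KO and 38.22 in WT cells. Leaving out 1 array could end the WT calls of Tyrobp (replicate 1 or 2 with both antibodies or 2 with anti-CD3, adjusted p up to 0.0692) and Lat2 (replicate 1 or 2 with both antibodies or 2 or 4 with anti-CD3, up to 0.0968), and the KO call of Cd79a (replicate 1 or 4 with both antibodies or 1 or 3 with anti-CD3, up to 0.112). Syk, the relative of Zap70 in B and myeloid cells, was at -0.12 in KO cells (adjusted p = 0.296) and -0.08 in WT cells (adjusted p = 0.548). Fcer1g was at -0.29 in KO cells (adjusted p = 0.0832) and -0.27 in WT cells (adjusted p = 0.132).

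Markers of other cells also moved with the stimulus. Over all genes, 17.6% fell and 20.4% rose in KO cells and 13% fell and 16% rose in WT cells. Of 10 B cell markers, 6 fell in KO and 5 in WT cells, among them Ms4a1, which encodes CD20, with differences of -1.25 in KO and -0.91 in WT cells. With both antibodies the Ms4a1 means lay near the filter on dim probes, at the 24.6 percentile in KO and 27.45 in WT cells. With anti-CD3 they lay at 46.2 in KO and 43.73 in WT cells. The brighter Cd79b, at the 58.5 percentile in KO cells with both antibodies, was not called, at 0.004 in KO and -0.15 in WT cells. Their summed linear signal was 743 to 865 in KO cells with both antibodies, against 886 to 1136 in KO cells with anti-CD3, and 734 to 872 in WT cells with both antibodies, against 974 to 1221 in WT cells with anti-CD3. Of 9 myeloid and dendritic markers, 5 fell in KO and 3 in WT cells. They summed to 1193 to 1519 in KO cells with both antibodies, against 1175 to 1836 in KO cells with anti-CD3, and to 1028 to 1460 in WT cells with both antibodies, against 1468 to 1610 in WT cells with anti-CD3. Of 3 gamma delta T cell markers, 1 fell in KO cells and none in WT cells. They summed to 325 to 350 in KO cells with both antibodies, against 356 to 404 in KO cells with anti-CD3, and to 292 to 334 in WT cells with both antibodies, against 306 to 363 in WT cells with anti-CD3.

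Of 6 CD8 and NK cell markers, 4 rose and 2 fell in each genotype, beside the shares of all genes given above. Cd8a, a chain of the CD8 coreceptor, rose by 0.40 in KO and 0.73 in WT cells, Cd8b1, its partner, by 0.76 in KO and 0.73 in WT cells, and the lectin receptor gene Klrd1 changed by -3.71 in KO and -3.43 in WT cells. The list summed to 1421 to 1911 in KO cells with both antibodies, against 1726 to 2880 in KO cells with anti-CD3, and to 1528 to 2108 in WT cells with both antibodies, against 1573 to 1920 in WT cells with anti-CD3. Among 11 CD4 T cell identity genes, Cd4 included, 4 fell in KO and 8 in WT cells. The regulator genes Lef1, Satb1, Ets1 and Tox fell in both genotypes, with Ets1 at -1.03 in KO and -0.96 in WT cells. The identity genes summed to 15089 to 15989 in KO cells with both antibodies, against 18044 to 21735 in KO cells with anti-CD3, and to 14347 to 18453 in WT cells with both antibodies, against 21176 to 24492 in WT cells with anti-CD3. Array signal has no true 0. Klrk1, Klrb1c, Ncr1, Klre1 and Gzma of the CD8 and NK list, Clec9a and Adgre1 of the myeloid and dendritic list and Cr2 of the B cell list were too dim to pass the filter and were not tested. The part of such cells in the lower signal of the CD3 chains and adaptors was not tested.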

How the data were processed

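Per the submitters' processing notes, the authors made log2 signals with RMA (background correction, quantile normalization and probe set summary). The deposited table holds 35556 probes on 16 arrays, with log2 values from 1.84 to 14. Array medians were 6.64 to 6.97, and 0 arrays were identical. The number of arrays limits the precision. GEO's probe table gave 21789 probes 1 symbol and 1621 several, and 12146 were not listed. Probes above the 25th percentile on at least 4 arrays were kept, and each gene was read from its brightest probe on average, leaving 16427 genes. limma 3.58.1 in R 4.3.3 fitted a mean per group over all 16 arrays, with two-sided tests and Benjamini-Hochberg adjustment over all genes. In simulated data the CD28 tests recovered 66% of genes changed 1.5-fold in KO cells and 75% in WT cells. Each gene had the same simulated spread in all groups, so these 2 shares do not show a difference between genotypes. Far fewer genes were changed there than were called in these data, which alters the adjusted threshold.

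The replicate number was tried as a block. The labels share numbers 1 to 4 across groups, and same-numbered arrays deviated together with correlations of 0.22 to 0.51 in KO and 0.16 to 0.37 in WT cells between stimuli, and of 0.18 to 0.45 with anti-CD3 and 0.20 to 0.59 with both antibodies between genotypes, so the pairing comes from the data. Unlike numbers of one set correlated as highly in places, up to 0.67 for 3 with 4 between genotypes with both antibodies, where 3 with 3 was 0.20, so there the set of replicates 1 and 2 or 3 and 4 is shared more than the number. Other alternatives changed the scaling, filter, probe choice, variance model, arrays and a sex marker. Promoter sequences came from RefSeq, GRCm38.p6. The 9 members and all gene lists were chosen with earlier results of these data known. Named genes were drawn from all members, Bhlhe40, the 4 genes with the smallest p per list and comparison, fixed counterparts, Cd8a and Cd8b1, and the genes nearest in profile. Markers too dim for the filter and Ptpn11 were named after their values were seen. Levels of different probes were not ranked, and sums over a list were compared only between arrays.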

Additional observations from a re-analysis of the deposited data

Results flagged for a closer look

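Cd247 in KO cells with anti-CD3 plus anti-CD28 had its highest array, replicate 4, at 9.89, apart from the other 3 at 9.84 to 9.85. The gap was 0.834 of the group's range, above Dixon's 95% critical value for 4 arrays. The group's SD was only 0.023, the spread in which the gap was measured. This was 1 of 32 groups of values examined over the 8 genes, and chance gives about 1 in 20.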

How the results depend on the processing

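The settings were other scalings, filters, probe choices and variance models, array weights, the replicate block, subsets of arrays and Xist as a covariate. The 6 called genes kept their direction under all 29 settings in both genotypes and their call in 171 of 174 values in KO and 172 of 174 in WT cells, the exceptions being replicates 3 and 4 alone, where values were -0.533 (Cd247), -0.565 (Lat) and -0.261 (Lcp2) in KO and -0.542 (Cd247) and -0.387 (Lcp2) in WT cells. With replicates 3 and 4 alone, 2896 genes, 3 members and 14 pathway genes were called in KO and 2650 genes and 22 pathway genes in WT cells. The cause was not tested. Fewer arrays enter these fits than the main fit, as also holds for replicates 1 and 2 alone, where all 6 genes kept their call in both genotypes. Testing every probe called 9853 probes in KO cells. Median centring moved the split of calls to 4283 higher and 1430 lower in KO cells (3357 and 2888 as deposited) and 3241 higher and 1438 lower in WT cells (2630 and 2140 as deposited), and the median of all genes to 0.0715 in KO and 0.0614 in WT cells, with 6 members called as lower in each. The replicate block changed no member call other than those given for Zap70. In WT cells, Zap70 passed under renewed quantile normalization (-0.578), array weights (-0.411) and without WT replicate 3 with both antibodies (-0.609), and Cd4 under the first 2 (-0.407 and -0.413). Between genotypes with anti-CD3, 169 genes were called, and 261 with median centring, 30 probes singly, 597 with array weights, 1954 with the replicate block, 5 with only the groups compared, 1388 and 0 with replicates 1 and 2 or 3 and 4 alone, 49 with Xist, and 7 to 452 with 1 array left out. The block called 1 member and 7 pathway genes, and replicates 1 and 2 alone 3 pathway genes. Replicates 1 and 2 alone called 2 genes between genotypes with both antibodies and 80 in the interaction. The uncalled values that changed sign were, for the stimulus in KO cells, Cd4 at 0.114 (centring) and 0.0651 (replicates 3 and 4), -0.119 to 0.0576 with 1 array left out, and Zap70 at -0.158 (quantile) and -0.0681 (replicates 3 and 4), -0.163 to 0.129. Between genotypes with anti-CD3 they were Cd3d at -0.0739 (centring), -0.0758 (weights), -0.0389 (replicates 1 and 2) and -0.0592 to 0.0971, Cd247 at 0.0827 (quantile), 0.0256 (weights), 0.259 (replicates 1 and 2), 0.0176 (Xist) and -0.078 to 0.126, Lat at 0.113 and Lcp2 at 0.0137 (replicates 1 and 2), and Lat at -0.134 to 0.00186. With both antibodies they were Cd3e at 0.0912 and Zap70 at 0.157 (replicates 1 and 2), Lcp2 at -0.0267 (centring) and -0.0465 (replicates 3 and 4), and with 1 array left out Cd3e at -0.17 to 0.00781, Cd4 at -0.159 to 0.0036, Zap70 at -0.272 to 0.0493, Lat at -0.0492 to 0.189 and Lcp2 at -0.0464 to 0.122. In the interaction they were Cd3g at -0.0177 (quantile), -0.0232 (replicates 3 and 4) and -0.0595 to 0.118, and Cd247 at 0.00974 (replicates 3 and 4).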
